A study of Mus musculus with 4 samples.

Results

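Apolipoproteins are the proteins that wrap lipid for transport in plasma, and the genes described here are 8 of them, Apob, Apoa1, Apoa2, Apoa4, Apoc1, Apoc2, Apoe and Apom, with Mttp, the transfer protein that lipoprotein assembly needs. They were taken by gene name from all probes outside the control types, which gave 9 genes with 13 probes among 41174 gene probes on the array. All 9 were among the 17161 genes that passed the filter on dim probes. The genes were selected on measured values, their ratios of Nxn-null over wild-type RNA and their change between stages, so both are given as descriptions with no test.

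The series compared mouse embryos without nucleoredoxin, a thioredoxin-related protein encoded by Nxn, with wild-type embryos, in relation to Wnt/beta-catenin signalling as its title states. The genotypes are given as NRX -/- and NRX +/+, the sample titles write KD for the former, and both were on the C57BL/6J strain with no treatment. Embryos were taken at the embryonic stages E9.5 and E11.5, and 4 two-colour arrays were hybridised, every one with null RNA against stage-matched wild-type RNA. For both stages the pair of dye-swapped arrays had null in Cy5 on replicate 1 and in Cy3 on replicate 2. The number of embryos per RNA, whether the arrays of a stage shared an RNA extract, and how much yolk sac, placenta or decidua was dissected away could not be learned from the sources used here. The arrays of a stage were therefore counted as 1 replicate, and every SD below is over n = 2 arrays and may be technical. All 9 marker genes of the embryo proper that were tested were well above background on at least 1 array of each genotype and stage.

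Lipoproteins that carry triglyceride are built in the endoplasmic reticulum, where Mttp loads lipid onto the large protein apolipoprotein B during its synthesis. Smaller apolipoproteins are then added or exchanged in plasma, where they activate lipases, bind receptors or form high-density lipoprotein. In the mouse, the visceral endoderm of the yolk sac secretes lipoproteins that supply the early embryo before the liver takes over, and mouse embryos that lack Apob die during gestation.

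Several of these genes shared the same course over the 4 RNAs. The bases just before the transcription start are therefore shown for the 4 lowest at E9.5 (Apob, Apoc2, Apoa1 and Apom). For contrast they are also shown for Mttp, whose dim probe read nearest to no difference. Each is the 150 bases upstream of a RefSeq start in build GRCm38.p6, written 5′ to 3′ on the strand of the gene, and capitals mark matches to the motifs named after the sequences. The Apob window is chr12:7977527-7977676 on the plus strand, the Apoc2 window is chr7:19677942-19678091 on the minus strand and the Apoa1 window is chr9:46228480-46228629 on the plus strand. The Apom window is chr17:35131802-35131951 and the Mttp window chr3:138143419-138143568, both on the minus strand.
Apob: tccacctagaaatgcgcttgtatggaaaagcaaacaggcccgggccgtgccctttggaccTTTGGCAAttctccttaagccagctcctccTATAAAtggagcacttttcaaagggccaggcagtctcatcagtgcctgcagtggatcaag
Apoc2: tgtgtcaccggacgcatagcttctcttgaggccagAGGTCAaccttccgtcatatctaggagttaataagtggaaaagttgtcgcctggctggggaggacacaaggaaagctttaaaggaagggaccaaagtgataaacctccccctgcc
Apoa1: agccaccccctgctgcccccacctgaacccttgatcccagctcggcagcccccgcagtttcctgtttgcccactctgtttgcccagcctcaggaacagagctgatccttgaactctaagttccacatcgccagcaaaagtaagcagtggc
Apom: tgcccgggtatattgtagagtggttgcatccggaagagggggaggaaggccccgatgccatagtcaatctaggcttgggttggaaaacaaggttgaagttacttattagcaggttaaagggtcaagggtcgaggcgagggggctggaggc
Mttp: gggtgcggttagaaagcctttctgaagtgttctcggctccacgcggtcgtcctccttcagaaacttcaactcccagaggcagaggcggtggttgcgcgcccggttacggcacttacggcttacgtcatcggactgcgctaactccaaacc
The motifs were searched on both strands of windows from 250 bases before to 50 bases after the start, of which the RefSeq table holds 32851 in all and 11 for 8 of the 9 genes. In the printed windows no 2 matches overlapped. Apob held TATAAA, the TATA box, 60 bases upstream and TTGCNNAA, a motif of C/EBP factors, 90 bases upstream on the opposite strand. TATAAA was in 13.6% of all windows and in 3 of the 11 windows of these genes, and TTGCNNAA in 10.8% and 2. Apoc2 held AGGTCA, a motif of nuclear receptors, 115 bases upstream. AGGTCA was in 16.3% of all windows and 2 of the 11. CAAAGTCCA, a motif of HNF4, was in 0.5% of all windows and 0 of the 11. AGATAA, which factors of the GATA family bind, was in 11.2% and 0. The windows of Apoa1, Apom and Mttp held none of the 5 motifs, and a match or its lack only describes the letters in these windows.

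At E9.5 the genes were lower in the null RNA to very different degrees. Apob, Apoc2, Apoa1 and Apom stood between 9.49% and 18.0% of the wild-type level, Apoa2, Apoc1, Apoe and Apoa4 between 36.1% and 53.6%, and Mttp at 85.7%. At least 2-fold lower were 6 of the 9, where 0.752% of all genes tested were, and 8 of the 9 were lower on both arrays, where 27.5% of all genes were. Apoa4 is among the 8 but passed the filter on dim probes only through the wild-type E9.5 RNA, so the filter favoured a lower null value for it. None was at least 2-fold higher (0.0874% of all genes). The median ratio was -1.47 on the log2 scale, against 0.00 for all genes, and since these ratios chose the genes nothing is read from the shares. In whole-embryo RNA, fewer cells of a type and less RNA per cell cannot be told apart.

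**Figure D1:**
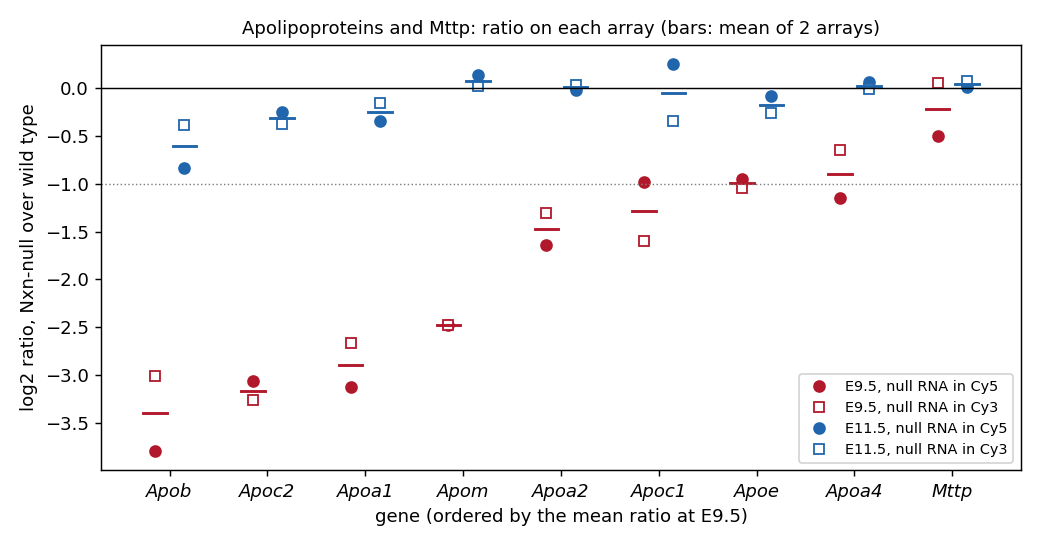
The log2 ratio of Nxn-null over wild type is plotted for each gene on each array, with circles for null RNA in Cy5, squares for null RNA in Cy3, red for E9.5, blue for E11.5, bars for the mean of the 2 arrays and a dotted line at 2-fold lower. The E9.5 means run from -3.40 for Apob to -0.22 for Mttp, and the E11.5 means from -0.61 to 0.07.

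Apob encodes the scaffold protein of chylomicrons and of very low and low density lipoprotein. Its brightest probe read 11.10 and 11.08 in the wild-type E9.5 RNA on replicates 1 and 2, as normalized log2 intensity, and 7.31 and 8.07 in the null E9.5 RNA. At E11.5 it read 8.67 and 8.50 in wild type and 7.83 and 8.12 in null. The wild-type E9.5 RNA was the highest, wild-type E11.5 came next without overlap, and the null values of the stages overlapped below both. The ratio was -3.79 and -3.00 at E9.5, a mean of -3.40 ± 0.56 or 10.5-fold lower. The E11.5 ratios of -0.84 and -0.39 averaged -0.61 ± 0.32, or 65.5% of wild type. The size at E9.5 depended on the signals used, with -2.63 for the mean of all kept probes and -4.43 for the Feature Extraction log ratio.

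The array held 5 Apob probes, all with 1 spot, and they did not read alike. A_52_P441070, which stood for the gene, and A_51_P470542 gave -3.40 and -3.39 ± 0.67 on the E9.5 arrays, with -0.61 and -0.58 on the E11.5 arrays, and were well above background in 8 and 7 of the 8 channels. A_51_P413088 gave -1.11 ± 0.28 at E9.5 and was not well above background in the null E9.5 RNA, so that it read at least 2.16-fold lower. A_51_P380650 and A_51_P436690 gave -0.29 and -0.21, were well above background in 1 channel each and were not kept. The files annotate A_52_P441070, A_51_P470542 and A_51_P380650 to one transcript and the other probes to another, so probes of the same annotation were on both sides of the split. The 2 probes with the larger ratios were also the ones read above background in nearly every channel.

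**Figure D2:**
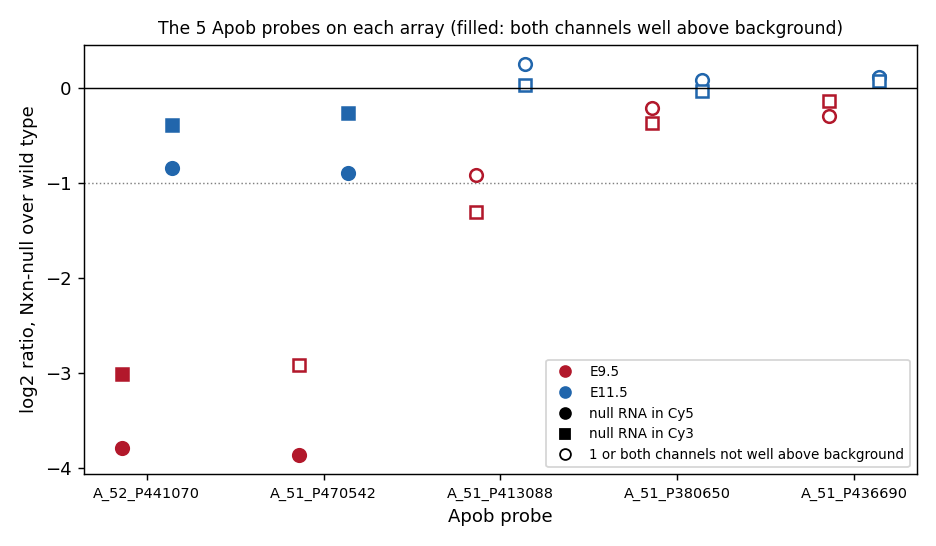
The log2 ratio of Nxn-null over wild type is plotted for each of the 5 Apob probes on each array, with red for E9.5, blue for E11.5, circles for null RNA in Cy5, squares for null RNA in Cy3, and open symbols where 1 or both channels were not well above background. The 2 probes at the left lie between -3.86 and -2.91 at E9.5, and the dim probes at the right between -0.36 and -0.13.

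Mttp, the assembly partner of Apob, did not show that course on its probe. Its single probe was dim, well above background in 7 of 8 channels, and read 7.76 and 7.87 in wild type and 7.27 and 7.92 in null at E9.5. At E11.5 it read 7.52 and 7.41 in wild type and 7.53 and 7.48 in null. The groups overlapped at each stage. The ratio was -0.50 and 0.05 at E9.5, with opposite signs on the dye-swapped arrays and a mean of -0.22 ± 0.39, and 0.01 and 0.08 at E11.5. The Feature Extraction log ratio put it at -0.71 and 0.42. The dim Apob probes A_51_P380650 and A_51_P436690 read -0.29 and -0.21 at E9.5, much like Mttp. A probe this dim cannot show whether Mttp RNA departed from Apob.

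Apoc2 encodes the cofactor that activates lipoprotein lipase on triglyceride-rich particles, and its promoter is the second of those printed above. It read 12.94 and 12.79 in wild type and 9.88 and 9.53 in null at E9.5, and 10.73 and 10.87 in wild type and 10.48 and 10.50 in null at E11.5. The 4 groups did not overlap, in the order wild-type E9.5, wild-type E11.5, null E11.5 and null E9.5. The ratio of -3.16 ± 0.14 at E9.5 was 8.94-fold lower, and at E11.5 it was -0.31 ± 0.09. The dye-swapped arrays lay close together at E9.5, at -3.06 and -3.26.

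Apoc1 and Apoe encode smaller exchangeable proteins, Apoe being the ligand by which receptors of the low density lipoprotein receptor family take up remnant particles and Apoc1 a protein that slows that uptake. Apoc1 read 10.35 and 10.87 in wild type and 9.37 and 9.27 in null at E9.5, and 10.52 and 10.78 in wild type and 10.77 and 10.43 in null at E11.5. Only the null E9.5 RNA stood apart, below the other 3 groups, which overlapped. The ratio was -0.98 and -1.60 at E9.5, a mean of -1.29 ± 0.43 or 2.45-fold lower, and 0.25 and -0.35 at E11.5. Apoe read 13.50 and 13.45 in wild type and 12.56 and 12.40 in null at E9.5, and 13.46 and 13.52 in wild type and 13.38 and 13.25 in null at E11.5. Its null E9.5 values were likewise below the rest, and its null E11.5 values lay just under both wild-type groups, which overlapped. The ratio was -0.95 and -1.05 at E9.5, a mean of -0.998 ± 0.072 that left 50.1% of the wild-type level, just short of 2-fold.

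Apoe and Apoa1 were each spotted 10 times per array, which shows the error of the spots. The 10 Apoe ratios at E9.5 lay between -0.98 and -0.90 on replicate 1 and between -1.09 and -1.03 on replicate 2, with an SD over spots of 0.022 and 0.017. The dye-swapped arrays were thus further apart than the spots of either. The 10 Apoa1 ratios at E9.5 lay between -3.27 and -2.97 and between -2.88 and -2.48, with an SD over spots of 0.088 and 0.121, and again the ranges did not meet. At E11.5 all 10 spots of both genes were below 0 on each array, between -0.12 and -0.03 and between -0.30 and -0.23 for Apoe, and between -0.42 and -0.28 and between -0.22 and -0.10 for Apoa1.

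Apoc2, Apoc1 and Apoe are neighbours in a cluster on chromosome 7, with Apoc4 between Apoc2 and Apoc1, and Apoa1, Apoc3, Apoa4 and Apoa5 form another on chromosome 9, by their order in the RefSeq table. Genes of a cluster stood apart at E9.5. In the first, Apoc2 had -3.16 ± 0.14 while Apoc1 had -1.29 ± 0.43 and Apoe -0.998 ± 0.072. In the other, Apoa1 had -2.89 ± 0.33, Apoa4 -0.90 ± 0.35 and Apoa5, which lies outside the 9 genes, -0.27 ± 0.02. Apoa4 and Apoa5 were near background, where the offset added to the signals pulls ratios toward 0. With the Feature Extraction log ratio, which has no such offset, Apoa4 stood at -2.81, Apoa1 at -3.73 and Apoa5 at -0.71, so the distance between Apoa1 and Apoa4 depended on the processing. Apoc3 and Apoc4 were not kept by the filter on dim probes.

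Apoa1 encodes the main protein of high-density lipoprotein. It read 10.80 and 10.60 in wild type and 7.68 and 7.94 in null at E9.5, and 9.41 and 9.07 in wild type and 9.06 and 8.91 in null at E11.5. The wild-type E9.5 values were the highest and the null E9.5 values the lowest, and the E11.5 groups lay between them with wild type above null by less than the distance between the wild-type arrays. The ratio was -3.12 and -2.66 at E9.5, a mean of -2.89 ± 0.33 or 7.42-fold lower, and -0.26 ± 0.13 at E11.5. The Feature Extraction log ratio at E9.5 was -3.73.

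Apom encodes the apolipoprotein of high-density lipoprotein that carries sphingosine-1-phosphate. It read 12.65 and 12.50 in wild type and 10.17 and 10.02 in null at E9.5, and 11.21 and 11.19 in wild type and 11.34 and 11.21 in null at E11.5. The E9.5 groups lay on either side of the E11.5 values, which did not differ by genotype beyond their spread. The ratio was -2.47 on replicate 1 and -2.48 on replicate 2, a mean 5.56-fold lower, and 0.13 and 0.02 at E11.5.

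Apoa2, the other abundant protein of high-density lipoprotein, was lower in null at E9.5 by less than Apoa1. It read 10.38 and 10.14 in wild type and 8.74 and 8.83 in null at E9.5, and 10.47 and 10.39 in wild type and 10.45 and 10.42 in null at E11.5. The null E9.5 values were far below the rest, wild-type E9.5 lay just under both E11.5 groups, and at E11.5 the null values lay inside the wild-type ones. The ratio was -1.64 and -1.31 at E9.5, a mean of -1.47 ± 0.23 or 2.77-fold lower, and 0.01 ± 0.04 at E11.5.

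Apoa4 encodes an apolipoprotein of chylomicrons that the adult intestine makes. Its probe was dim, at 7.91 and 7.97 in wild type and 6.77 and 7.32 in null at E9.5, where it was well above background in null on 1 of the 2 arrays. At E11.5 it read between 6.81 and 6.91 in both genotypes and was not well above background on any array. The E9.5 groups did not overlap, with ratios of -1.15 and -0.65 and a mean of -0.90 ± 0.35. That value moved to -2.81 with the Feature Extraction log ratio, which has no offset.

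**Figure D3:**
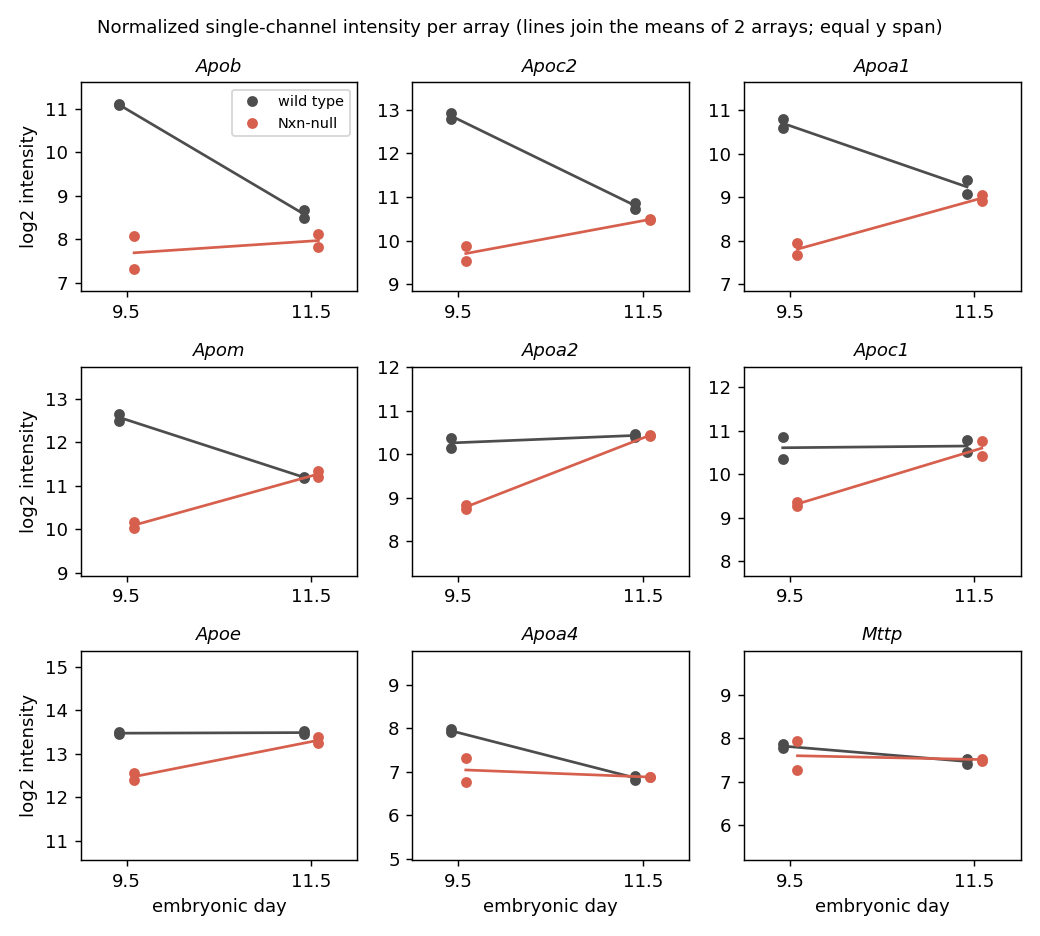
Normalized single-channel log2 intensity is plotted for each gene against embryonic day, 1 point per array, wild type in grey and Nxn-null in red, with lines joining the means of the 2 arrays and the same height of axis in every panel. For Apob, Apoc2, Apoa1 and Apom the genotypes start far apart at E9.5 and lie close at E11.5, whereas for Apoa2, Apoc1 and Apoe the null E9.5 points alone stand far below the rest.

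At E11.5 none of the 9 genes was 2-fold apart, where 0.204% of all genes were, and the median ratio was -0.05 against 0.01 for all genes. Lower on both arrays were 4 of the 9, Apob, Apoc2, Apoa1 and Apoe (22.6% of all genes), and 2, Apom and Mttp, were higher on both (22% of all genes). Apob kept the lowest ratio of the 9. The small ratios depended on the scaling: with median centring in place of loess, Apoe stood at 0.00, Apoc1 at 0.08 and Apoa4 at -0.17, and Apoc2 and Apoa1 at -0.19 and -0.14.

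The course between stages separated the genes into patterns that the ratios alone do not show. In wild type, 5 of the 9 were at least 2-fold lower at E11.5 than at E9.5 (1.53% of all genes), namely Apob at 5.67-fold, Apoc2 at 4.18-fold, Apoa1 at 2.76-fold, Apom at 2.59-fold and Apoa4, whose fold is a bound, at least 2.12-fold lower. Apoa4 passed the filter on dim probes only through the wild-type E9.5 RNA and was well above background on neither array of either genotype at E11.5, so the filter itself required it to be lower there, and 4 of the 9 are left without it. The other 4 stood between -0.35 and 0.17 on the log2 scale, with 0.17 ± 0.12 for Apoa2, 0.04 ± 0.18 for Apoc1, 0.01 ± 0.08 for Apoe and -0.35 ± 0.15 for Mttp (SD over n = 2 pairs of arrays with the same dye). In null, 4 of the 9 were at least 2-fold higher at E11.5 (2.69% of all genes), Apoa2 at 3.14-fold, Apoc1 at 2.43-fold, and Apoa1 and Apom at 2.26-fold each. Apoe was 1.79-fold higher in null. On both pairs of arrays with the same dye, 4 of the 9, Apob, Apoc2, Apoa1 and Apom, were lower in wild type and higher in null at E11.5 (4.29% of all genes). These changes were among the values that chose the genes, so they are descriptions and nothing is read from the shares. The wild-type RNAs of the stages also differed in sex-linked genes, as given below.

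Apoa1 and Apom went opposite ways in the genotypes by more than 2-fold each, -1.46 ± 0.10 in wild type and 1.17 ± 0.29 in null for Apoa1, and -1.37 ± 0.09 and 1.18 ± 0.01 for Apom. Apob and Apoc2 combined a larger difference in wild type, -2.50 ± 0.10 and -2.06 ± 0.21, with a smaller one in null, 0.28 ± 0.34 and 0.78 ± 0.26. The null value of Apob turned to -0.07 without E9.5 replicate 1 and was 0.69 without E9.5 replicate 2. Apoa2, Apoc1 and Apoe were level in wild type and higher at E11.5 in null, by 1.65 ± 0.08, 1.28 ± 0.17 and 0.84 ± 0.02. Mttp stood at -0.09 ± 0.50 in null and so had no difference beyond its spread there.

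**Figure D4:**
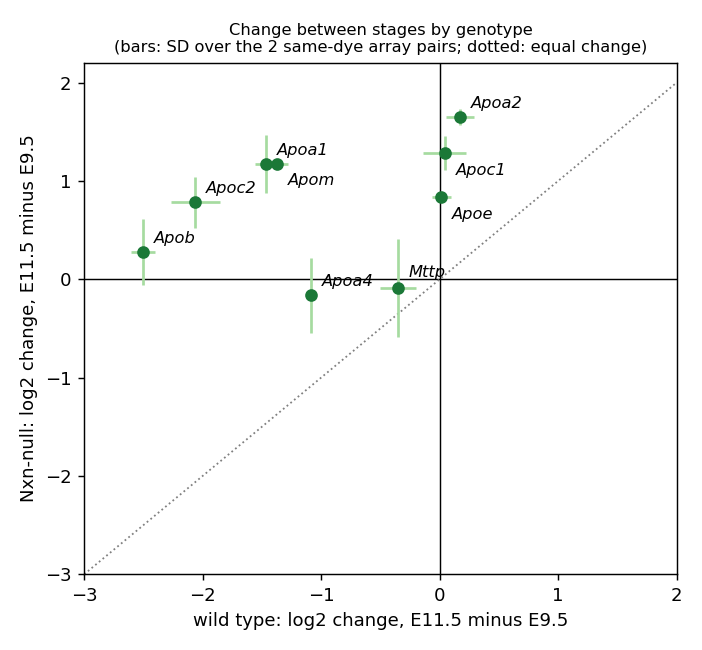
The log2 change from E9.5 to E11.5 in Nxn-null RNA is plotted against that in wild-type RNA for each of the 9 genes, with bars for the SD over the 2 pairs of arrays with the same dye and a dotted line where the changes are equal. All 9 points lie above the line, from Mttp near it to Apoc2, whose changes are -2.06 and 0.78.

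Between the genes themselves, likeness was measured as the Euclidean distance over the 8 single-channel log2 values, each gene centred on its own mean. The channels share arrays and RNAs, so the distances describe these 8 readings only. Apoc1 and Apoe were closest at 0.65, followed by Apoa1 and Apom, also at 0.65, Apoc1 and Apoa2 at 0.76, Apoe and Apoa2 at 0.89, and Apoa4 and Mttp at 0.90. Apob was nearest to Apoc2 at 1.14 and farthest from Apoa2 at 3.55. Of all other genes tested, Spp2, a secreted phosphoprotein, at 0.71, and the transcript CF584628 at 0.91 were among the nearest to Apob, with Pdzk1, a scaffold protein that binds the receptor Scarb1, at 1.09 and 4933402E13Rik at 1.18. The first 3 had ratios of -3.35, -3.56 and -2.62 at E9.5, and 4933402E13Rik, well above background on neither null E9.5 array, was at least 5.404-fold lower. Nearest to Apoe were Zfp975 at 0.33, Mirg, Gfra3 and BC004066 at 0.34 each, and Hspb2 at 0.34, with ratios at E9.5 from -1.07 to -0.81.

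Apolipoproteins outside the 9 genes had a median ratio nearer to 0 at E9.5, but the 9 genes were chosen by their ratios and several of the others were dim. Apof and Apoh were well above background on no E9.5 array of either genotype. Apoa5, Apod, Apon and Lcat read between 7.23 and 7.85 in wild type at E9.5, near background, where the offset draws ratios toward 0. Of 15 listed, 10 were tested, and none was 2-fold apart at either stage, with median ratios of -0.12 and 0.03. At E9.5, 5 were lower and 1 was higher on both arrays, where 25.1% of all genes were higher, and 3 lower and 4 higher at E11.5. Saa2, an acute-phase protein of high-density lipoprotein, had -0.68 ± 0.09 at the earlier and -0.44 ± 0.05 at the later stage, and its relative Saa1 -0.27 ± 0.01 and -0.25 ± 0.06. Clu, also called apolipoprotein J, had -0.31 ± 0.02 and 0.13 ± 0.22. Apoa5, which promotes clearance of triglyceride, had -0.27 ± 0.02 and 0.01 ± 0.01, and Apon 0.07 ± 0.14 and 0.16 ± 0.13.

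Genes of lipoprotein assembly and secretion were mostly near level. Of 19 tested from 21 listed, the medians of the stages were -0.03 and 0.00, with 8 lower and 1 higher on both arrays at E9.5 (at E11.5, 7 and 5). P4hb, the protein disulfide isomerase that forms the Mttp complex, had 0.09 ± 0.17 and 0.06 ± 0.17, and Sar1b, the GTPase that chylomicron export needs, -0.08 ± 0.14 and 0.00 ± 0.02; both were named after their values were seen. The only gene at least 2-fold lower at E9.5 was Aadac, an esterase of the endoplasmic reticulum, which was not well above background in null and was at least 2.37-fold lower, with a ratio of -0.24 ± 0.01 at E11.5. Soat2, which esterifies cholesterol in lipoprotein-producing cells, had -0.83 ± 0.05 and -0.06 ± 0.02, its relative Soat1 -0.49 ± 0.13 and 0.16 ± 0.08, and Dgat2, which makes triglyceride, -0.52 ± 0.22 and 0.16 ± 0.20. Plin2, a coat protein of lipid droplets, was lower at E11.5, at -0.12 ± 0.06 and -0.48 ± 0.10.

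Among 14 tested genes of lipid uptake and supply (16 listed), the stage medians were -0.19 and 0.01. At E9.5, 8 were lower and 4 higher on both arrays, and at E11.5, 5 and 2. Fabp4, the fatty acid binding protein of adipocytes and endothelium, was the only one 2-fold apart, at 1.01 ± 0.02 higher in null at E9.5 and -0.29 ± 0.05 at E11.5. Fabp1, its counterpart in liver and gut, was not well above background in null at E9.5 and was at least 1.89-fold lower, with -0.37 ± 0.00 at E11.5. Slc27a2, a fatty acid transporter and activating enzyme, had -0.84 ± 0.05 and -0.09 ± 0.00, and Slc27a4 0.24 ± 0.02 and 0.20 ± 0.22.

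Among lipoprotein receptors and their adaptors, 2 members had ratios at E9.5 of a size like those of Apob and Apoc2. Of 18 tested, 12 were lower and 3 higher on both arrays at E9.5 (at E11.5, 3 and 5), with medians of -0.14 and 0.02. Cubn, the endocytic receptor cubilin, which takes up high-density lipoprotein and Apoa1, had -4.25 ± 0.45 and -0.09 ± 0.14, and its membrane partner Amn -3.07 ± 0.05 and 0.03 ± 0.01. In wild type Cubn was 20.6-fold and Amn 16.0-fold lower at E11.5 than at E9.5. Dab2, the endocytic adaptor of this family, had -0.81 ± 0.19 and -0.09 ± 0.16, Vldlr, the very low density lipoprotein receptor, -0.40 ± 0.03 and -0.24 ± 0.08, and Lsr -0.25 ± 0.00 and 0.18 ± 0.02.

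Lipases, regulators and sterol enzymes had medians close to 0. Among 9 tested lipases and lipid transfer genes (13 listed), with medians of -0.10 and 0.01, 4 were lower and 2 higher on both arrays at E9.5 (at E11.5, 3 and 1). Lpl, the lipoprotein lipase that Apoc2 activates, had -0.65 ± 0.50 and -0.47 ± 0.29, Pltp, the phospholipid transfer protein, 0.27 ± 0.32 and 0.01 ± 0.02, Abca1, the exporter that loads Apoa1 with lipid, -0.22 ± 0.19 and -0.12 ± 0.08, and the sterol exporter Abcg5 0.09 ± 0.01 and 0.10 ± 0.06. Among 24 tested transcriptional regulators (26 listed), with medians of -0.01 and 0.04, 9 were lower and 5 higher at E9.5 (at E11.5, 2 and 7). Cebpb, a C/EBP factor, had -0.67 ± 0.38 and -0.08 ± 0.25, Gata6 -0.58 ± 0.07 and 0.02 ± 0.14, Srebf1 0.05 ± 0.15 and 0.14 ± 0.03, and Cebpa -0.05 ± 0.08 and 0.12 ± 0.13. Of 20 sterol synthesis genes, with medians of -0.07 and 0.05, 11 were lower and 1 higher at E9.5 (at E11.5, 1 and 6), with Msmo1 lowest at -0.33 ± 0.03 at E9.5 and Hmgcs1 lowest at -0.20 ± 0.11 at E11.5. Lss, Sc5d, Nsdhl and Mvd lay between -0.27 and 0.13 at both stages.

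**Figure D5:**
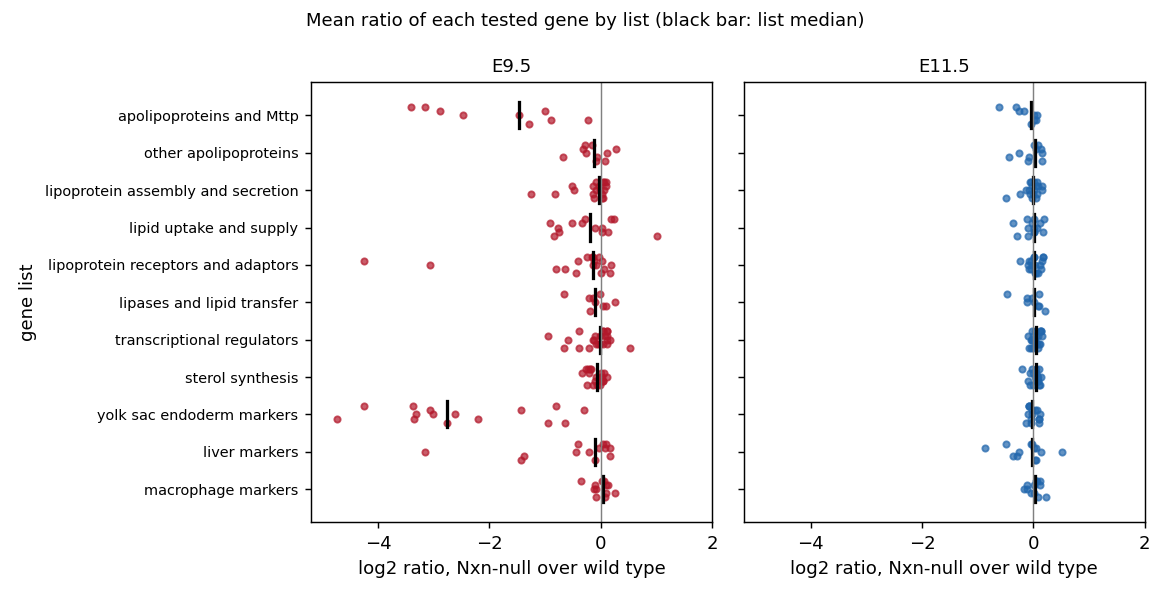
The mean log2 ratio of Nxn-null over wild type is plotted for every tested gene of each list, E9.5 at left and E11.5 at right, with a black bar at the list median. At E9.5 the apolipoprotein set (median -1.47) and the yolk sac endoderm markers (median -2.76) lie to the left of the other lists, and at E11.5 the medians of the lists shown lie between -0.05 and 0.05.

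Marker genes of yolk sac endoderm were lower in null at E9.5, as most of the apolipoproteins were. Their median null change between stages differed from that of the 9 genes. All 15 were lower in null on both arrays at E9.5, 11 of them at least 2-fold, with stage medians of -2.76 and -0.03. The list shares Cubn, Amn, Lrp2 and Dab2 with the receptors above. It also holds Spp2 and Pdzk1, named above among the genes nearest to Apob. Its summed intensity was 165993 to 169745 in wild type and 17873 to 21356 in null at E9.5, and 79083 to 86933 and 79571 to 80083 at E11.5. Over the same groups the 9 genes summed to 31204 to 32946, 9163 to 9828, 19613 to 20199 and 17341 to 18860. Cubn, Amn and Rhox5 remained well above background on both null E9.5 arrays, S100g on 1, and Cldn2 on neither. In wild type the list had a median change of -1.62 between stages, and in null of -0.04, against 0.84 in null for the 9 genes. The null median does not describe every marker. In null, Afp, Rbp4 and Fgg were higher at E11.5, by 2.636, 1.814 and 1.399, as several of the 9 genes were. Lrp2, Amn and Rhox5 were lower there, at -0.946, -0.902 and -0.506, and the other markers lay between these groups. The part of yolk sac content in the apolipoprotein values was not tested.

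Liver markers as a list were not lower to that degree at E9.5. The 13 tested of 14 listed had medians of -0.10 and -0.01, with 3 at least 2-fold lower at E9.5, and their summed intensity at E9.5 was 46664 to 46667 in wild type and 42739 to 45008 in null. The E11.5 sums were 69117 to 70840 and 65035 to 66090. These sums mostly reflect Dlk1, whose mean log2 intensity was 15.1 in wild type and 15.2 in null at E9.5, and 15.4 in both at E11.5. Alb, serum albumin, had 0.10 ± 0.04 and -0.48 ± 0.03, and Ahsg, fetuin A, -0.04 ± 0.01 and -0.86 ± 0.11, and Alb was higher at E11.5 than at E9.5 by 4.35 in wild type and 3.77 in null. Macrophage markers, listed because macrophages make Apoe, had medians of 0.04 and 0.03 over 12 genes. Markers of intestine and kidney had -0.77 and -0.08 over 5 tested of 8, with Vil1, the microvillar protein villin, at -2.30 ± 0.01 at E9.5. Placenta and decidua markers had 0.19 and 0.02 over 8 tested of 12. At E9.5, 5 were higher in null on both arrays, 3 of them at least 2-fold, with Prl3d1 at 1.06 ± 0.26, Prl3d2 at 1.41 ± 0.00 and Prl8a2 at least 5.59-fold higher. The other 3 were lower on both arrays, Plac1 at -0.51, Des at -0.30 and Dcn at -0.27. Primitive red cell markers had -0.60 and -0.83, and lists for neural epithelium, endothelium and embryo proper had medians between -0.08 and 0.09 at both stages. Of the 9 embryo proper markers, however, 2 of heart muscle were at least 2-fold lower in null at E9.5, Myh6, a cardiac myosin heavy chain, at -1.58 ± 0.25 and Tnnt2, cardiac troponin T, at -1.14 ± 0.09. Between stages they changed by -0.17 and -0.16 in wild type and by 1.37 and 1.08 in null, values near those of Apoc1 and Apoe. The part of any of these tissues in the apolipoprotein values was not tested.

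Over the series, both Nxn probes were lower in null on all 4 arrays, between -0.77 and -1.42. Between 48.2% and 70.3% of gene probes were well above background per channel, more in Cy5 than in Cy3 on every array, and 0 to 7 spots per array were saturated. All 4 arrays lay on 1 slide and 1 scan, so no such batch separates the groups. At E11.5 sex-linked genes differed between the RNAs: Xist was at least 57.0-fold higher in null, and, of Y-linked genes, Eif2s3y was at least 8.69-fold and Ddx3y at least 5.79-fold lower, while at E9.5 no sex-linked gene tested was 2-fold apart. The wild-type RNAs differed between stages too, with Xist at least 52.6-fold lower and Eif2s3y at least 13.0-fold higher at E11.5. In null, Xist changed by 0.54, and Eif2s3y was well above background at neither stage. The part of this difference in the E11.5 ratios or in the wild-type changes between stages was not tested.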

How the data were processed

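Per the labels, total RNA of embryos was amplified from an oligo-dT primer and labelled with Cy3 or Cy5, so values lean toward the 3′ ends of transcripts. The deposited scanner files hold linear spot intensities with local background, made with Agilent Feature Extraction 9.1.3.1 per the file headers, while the submitters' processing notes name 9.5.3.1. Per the file headers, they also hold a log10 ratio of the dye-normalized signals. The authors' deposited value table equalled the log10 ratio of the processed signals within 0.001 for at least 99.995% of 40929 probes with 1 spot, once turned to null over wild type. It is therefore on the log10 scale in that direction, with no further centring, and with column medians from -0.0347 to 0.0408. It served as an alternative.

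Mean intensities were corrected for median local background by normexp with an offset of 50, which draws ratios of dim probes toward 0, and normalized by loess with control spots at weight 0 (R 4.3.3 with limma 3.58.1, jsonlite 2.0.0 and version 1.17.8 of the package data.table). Outlier spots were left out, which removed 293 probes, and spots of a probe were averaged. A probe was kept if well above background, by the mark of Feature Extraction, on both arrays of a stage for at least 1 of the genotypes (24994 of 41174), and the brightest stood for a gene. For levels, channels were set between arrays by Aquantile. For a group above background on neither array, a bound is given, the bright group over the higher of the probe's signal and the lowest signal well above background per array. A probe's level is not set against another probe's. Symbols came from a RefSeq table, through accession for 22951 probes, symbol for 6659 and older symbol for 3109, and 8455 kept the name in the files.

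Genotype ratios and changes between stages were not tested, since both chose the genes, and a planned limma test of the stage change shared by the genotypes, which uses the same values, is not reported. Members and lists were chosen with earlier results of these data known. Named genes were all members with every probe, the 3 largest ratios of each list and stage with the same sign on both arrays, the 5 nearest neighbours of Apob and of Apoe, and the first markers of each list; a few of the genes this names, and a promoter motif, are not reported here. P4hb, Sar1b and the other genes named outside this rule were chosen after their values were seen. Python 3.11.15 with matplotlib 3.10.9 drew the figures.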

Additional observations from a re-analysis of the deposited data

Results flagged for a closer look

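For some genes every array of one group moved one way and every array of the other the opposite way, and in each case the difference itself was not tested. From E9.5 to E11.5, both pairs of arrays with the same dye were lower in wild type and higher in null for 4 of the 9 genes, as for 4.29% of all genes; these changes were among the values that chose the genes. The change in null minus that in wild type was 2.79 on the log2 scale for Apob (-2.50 in wild type and 0.28 in null), 2.85 for Apoc2 (-2.06 and 0.78), 2.64 for Apoa1 (-1.46 and 1.17) and 2.55 for Apom (-1.37 and 1.18). Apob is the least certain of these, since 1 of its null pairs stood at 0.04 and its null change was -0.07 without E9.5 replicate 1.

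For Apom, the ratio of null over wild type was below 0 on both arrays at E9.5 and above 0 on both at E11.5, where E11.5 minus E9.5 was 2.55. Its E11.5 ratios were 0.13 and 0.02, and the share of all genes with such opposite signs is not given here. Among the other genes of lipoprotein handling that are named above from the lists, the same difference was 3.1 for Amn, 0.68 for Dgat2, 0.65 for Soat1, 0.43 for Lsr, 0.38 for Sc5d, 0.29 for Apoa5, 0.21 for Nsdhl and 0.13 for Mvd, each lower in null at E9.5 and higher at E11.5. Of these named genes Fabp4 ran the other way, at -1.29, from 1.01 at E9.5 to -0.29 at E11.5, as did others of the lists such as Lrp1 (0.18 and -0.09) and Fabp5 (0.18 and -0.11). For most of these the ratio on one side lay close to 0.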

How the results depend on the processing

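No value of at least 1 on the log2 scale among the results named above changed direction under any alternative run, while values near 0 did. The null change of Apob was -0.07 without E9.5 replicate 1, and the E9.5 ratio of Mttp was 0.05 without it. The E11.5 ratio changed sign for Apoc1, Apoa4 and Apoe with median centring, for Apoa4 also with the Feature Extraction log ratio and the deposited value table, and for Apoa2, Apoa4 and Apoc1 when 1 array was left out. Leaving out 1 array also turned the wild-type change of Apoc1 and Apoe and the null change of Apoa4 and Mttp, and median centring that of Apoe in wild type. At E9.5 the 9 genes had a median ratio of -1.47, which was -1.565 with a normexp offset of 10, -1.40 with median centring, -2.585 with the Feature Extraction log ratio and -1.637 to -1.472 when 1 array was left out. The E11.5 median of -0.049 was -0.179 with the Feature Extraction log ratio and -0.163 to -0.019 without 1 array. At least 2-fold lower at E9.5 were 6 to 8 of the 9 in every alternative run, and over 10 alternatives Apoe passed in 4, Apoa4 in 5 and Apoc1 in 9. Some of the 10 could not change the E9.5 ratios of these genes, which have a single probe each. Leaving out an E11.5 array, dropping the filter on dim probes and averaging all kept probes repeat the main value, so the tallies are no measure of robustness. Of all genes, 129 were at least 2-fold lower at E9.5, 408 with the Feature Extraction log ratio and 115 to 247 without 1 array. The 15 higher genes became 31 with an offset of 10, 130 with the Feature Extraction log ratio and 15 to 64 without 1 array, and the 35 genes at E11.5 became 85, 156 and 31 to 144.

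The median change in wild type of -1.08 was -1.391 with an offset of 10, -1.042 with median centring, -1.022 with quantile normalization, -1.373 with every channel required above background, and -1.227 to -1.008 without 1 array. The null median of 0.84 became 1.173 with every channel required above background and 0.755 to 0.966 without 1 array.

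Dim probes (Apoa4, Mttp and 3 of the Apob probes) limit what can be said of those values. No paired analysis was possible because no result reported here comes from a test. Null and wild type are paired on each array by construction. The planned test of a stage change shared by the genotypes, and its alternatives, are left out since the stage changes chose the genes. The cause of the differences between settings was not tested.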
